A study of Homo sapiens with 4 samples.

Results

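The m6A reader genes examined here are YTHDF1, YTHDF2, YTHDF3, YTHDC1 and YTHDC2 of the YTH family, and IGF2BP1, IGF2BP2 and IGF2BP3 of the IGF2BP family. They are 8 of the 20046 protein-coding genes of the annotation. Their members in the data were all m6A peaks whose summit, the base with the highest signal in the peak, fell between the start and end of 1 of these genes. This gave 17 of 24607 peaks in replicate 1 and 13 of 19318 peaks in replicate 2. The peaks came from OE-19 cells, a human cell line from an adenocarcinoma of the esophagogastric junction (AEG), grown in RPMI1640 medium with fetal bovine serum and no other treatment named. RNA was pulled down with an anti-m6A antibody and sequenced (meRIP-seq) in 2 samples, and 2 input samples without antibody carry no list of peaks analysed here. All values are therefore from a single condition of 1 cell line, the labels do not say whether the replicates came from separate cultures, and no test between conditions could be made.

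The methyl mark m6A is written onto adenosines of RNA, mostly within short motifs around the letters GGAC, and acts through proteins that bind it. YTH proteins hold the methylated base in a pocket of their YTH domain. YTHDF1 is best known for promoting translation, YTHDF2 for recruiting the deadenylation machinery to methylated mRNAs, and YTHDF3 for working with both. YTHDC1 is the nuclear reader, which influences splicing and export, and YTHDC2 is a helicase required for meiosis in the germline. IGF2BP proteins bind RNA through RRM and KH domains and are known to stabilise methylated mRNAs. The peaks described below lie on the mRNAs that encode these readers, and say nothing of what the proteins bind.

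YTHDF1, YTHDF2, YTHDF3, YTHDC1, IGF2BP2 and IGF2BP3 each carried a peak with an exonic summit in both replicates, which is 6 of the 8 genes. The YTH family contributed 4 of 5 genes and the IGF2BP family 2 of 3. YTHDC2 had 1 intronic peak in replicate 1 only, and IGF2BP1 had no peak at all. Over all protein-coding genes, 31.9% carried one in both replicates. Among the 11061 genes whose exonic length lay within the range of the reader genes (3206 to 10805 nt), it was 38.7%. Both shares count genes whether or not these cells express them. The fold enrichment, the ratio of signal to local background that the peak caller gives at the summit, was ranked by its geometric mean over both replicates. The coding sequence (CDS) of YTHDF2 came first, with 14.3 in replicate 1 and 8.87 in replicate 2. It was followed by the distal 3′ UTR of IGF2BP2 with 9.28 and 10.6, an intron of IGF2BP3 with 6.41 and 10.2, and the stop codon region of YTHDF3 with 10.8 and 5.81. The order differed between the replicates, as the highest value was that of YTHDF2 in replicate 1 and that of IGF2BP2 in replicate 2.

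The sequences below are shown because they carry the contrast between summits with and without GGAC close by. Each is the hg38 genome around a summit, read 5′ to 3′ on the strand of the gene, with every GGAC in capitals. Coding and intronic windows reach 50 nt to each side of the summit, and the 3′ UTR window reaches 14 nt.
YTHDF2 exon 4, replicate 2 (chr1:28743655-28743755, plus strand): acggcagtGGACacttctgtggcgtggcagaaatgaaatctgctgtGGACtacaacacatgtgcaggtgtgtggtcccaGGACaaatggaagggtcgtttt
YTHDF1 exon 4, replicate 1 (chr20:63202917-63203017, minus strand): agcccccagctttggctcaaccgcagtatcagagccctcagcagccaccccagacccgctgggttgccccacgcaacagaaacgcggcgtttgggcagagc
YTHDC1 exon 4, replicate 1 (chr4:68337167-68337267, minus strand): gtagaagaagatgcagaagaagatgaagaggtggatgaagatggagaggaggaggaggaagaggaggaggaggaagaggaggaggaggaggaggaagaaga
YTHDC1 intron 11, replicate 1 (chr4:68321448-68321548, minus strand): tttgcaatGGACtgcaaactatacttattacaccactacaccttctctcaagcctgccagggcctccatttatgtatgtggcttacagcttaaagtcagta
IGF2BP3 exon 1, replicate 2 (chr7:23469979-23470079, minus strand): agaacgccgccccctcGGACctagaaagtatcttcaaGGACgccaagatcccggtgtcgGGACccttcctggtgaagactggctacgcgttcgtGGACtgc
IGF2BP3 intron 3, replicate 1 (chr7:23414813-23414913, minus strand): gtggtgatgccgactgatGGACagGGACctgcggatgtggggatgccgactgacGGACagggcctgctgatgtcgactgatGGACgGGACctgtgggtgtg
IGF2BP3 intron 3, replicate 2 (chr7:23415160-23415260, minus strand): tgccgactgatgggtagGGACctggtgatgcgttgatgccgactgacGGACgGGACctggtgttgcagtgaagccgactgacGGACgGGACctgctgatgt
IGF2BP2 exon 16, 3′ UTR, replicate 2 (chr3:185643929-185643957, minus strand): gagagagagaatattggagatgtcctgaa
The YTHDF2 window held 3 GGAC and both IGF2BP3 intron windows held 5, whereas the YTHDF1 and YTHDC1 exon 4 windows held none and the latter ran almost wholly in A and G.

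To place the peaks on the mRNAs, positions were counted on the MANE Select transcript, the reference isoform that RefSeq and Ensembl share. The peaks of the 3 YTHDF genes covered far more of their mRNA than those of the other readers. In YTHDF1, 53.4% and 50.2% of the 3198 nt transcript lay under a peak in replicates 1 and 2. In YTHDF2 it was 61.7% and 54.8% of 2744 nt, and in YTHDF3 35.8% and 35.5% of 5095 nt. YTHDC1 followed with 13.1% and 5.17%, IGF2BP2 with 10.3% and 4.95%, and IGF2BP3 with 7.56% and 3.30%. Summed over the family, 25.6% and 22.2% of the YTH mRNA length was covered, against 4.40% and 2.03% of the IGF2BP mRNA length. Families of 5 and 3 genes of a single cell line are no replicates, so this difference was not tested.

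**Figure D1:**
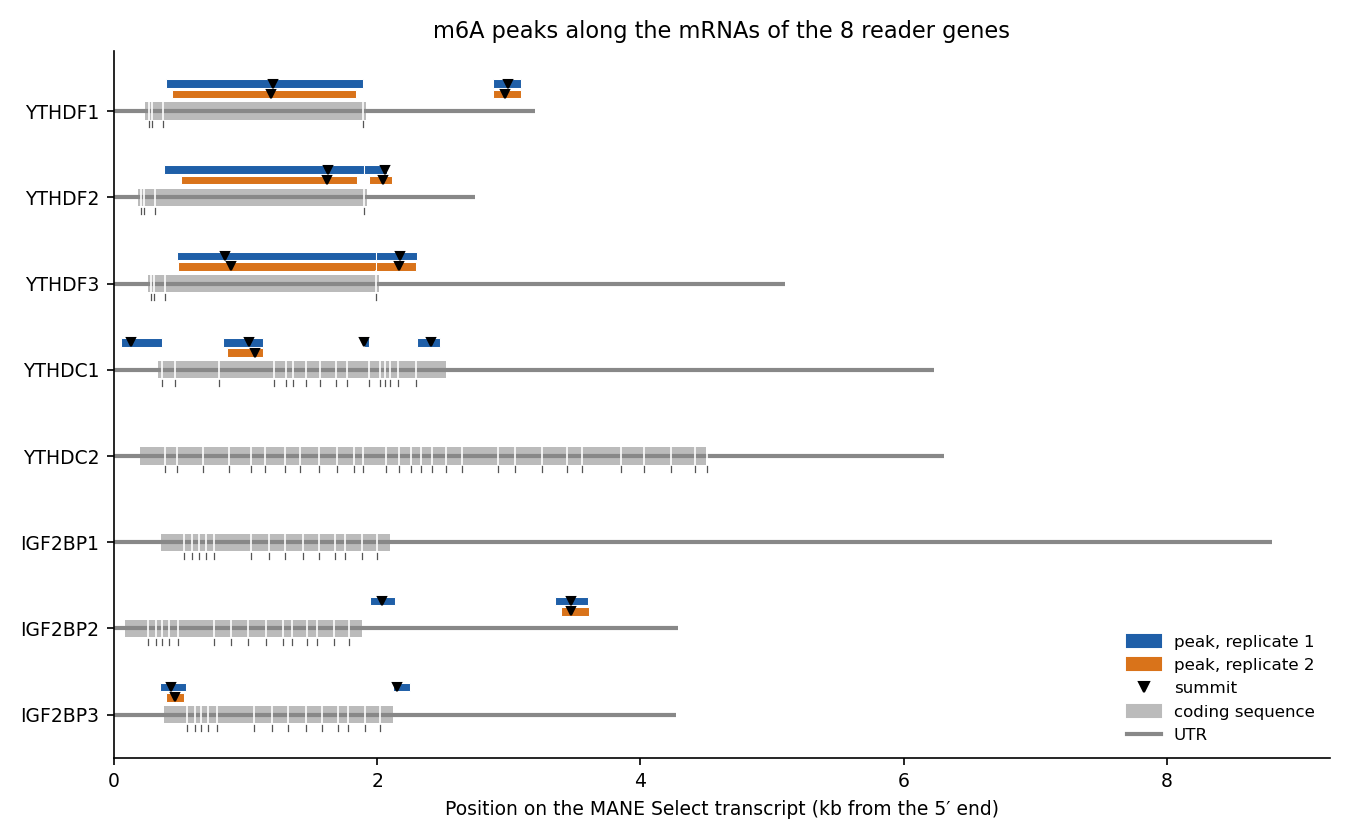
Peaks along the MANE Select transcript of each reader gene, with the position in kb from the 5′ end on the x axis; grey boxes are the CDS with exon junctions as ticks, grey lines are UTRs, blue and orange bars are peaks of replicates 1 and 2, and triangles are summits. The long bars on YTHDF1, YTHDF2 and YTHDF3 span most of the CDS, while YTHDC2 and IGF2BP1 have none; only peaks with a summit in an exon of the transcript are drawn, so the intronic peaks of YTHDC1, YTHDC2 and IGF2BP3 are absent.

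The YTHDF mRNAs share an unusual structure, in which a single internal exon holds nearly the whole CDS. Exon 4 of YTHDF1 (1521 nt), YTHDF2 (1584 nt) and YTHDF3 (1599 nt) held 90.7%, 91.2% and 91.1% of the respective coding sequences. A single peak lay over almost all of this exon in each gene and each replicate. It covered 98.2% and 91.9% of exon 4 in YTHDF1, 95.8% and 84.2% in YTHDF2, and 94.7% and 94.1% in YTHDF3. Of the 1156 internal exons of at least 1000 nt in protein-coding genes, 749 held a summit in replicate 1 and 722 in replicate 2, with a median of 58.0% and 47.6% covered. The YTHDF exons stood between percentiles 74.7 and 86.6 of these exons, so that wide coverage of a long exon was common and 96 to 182 other exons had more of it.

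Along exon 4, the summits lay at different places in the 3 paralogs, although their proteins are alike (69.0% to 72.5% identical residues in pairwise alignments). In YTHDF1 the summits fell in codons 325 and 318 in replicates 1 and 2, in YTHDF2 in codons 481 and 479, and in YTHDF3 in codons 196 and 211. Through the alignment, the YTHDF2 codons 481 and 479 correspond to codons 460 and 458 of YTHDF1 and 487 and 485 of YTHDF3, well downstream of the summits found there. Within each gene, by contrast, the summits of both replicates were only 20, 8 and 46 nt apart, beside a median of 26 nt over all 11741 exonic pairs.

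**Figure D2:**
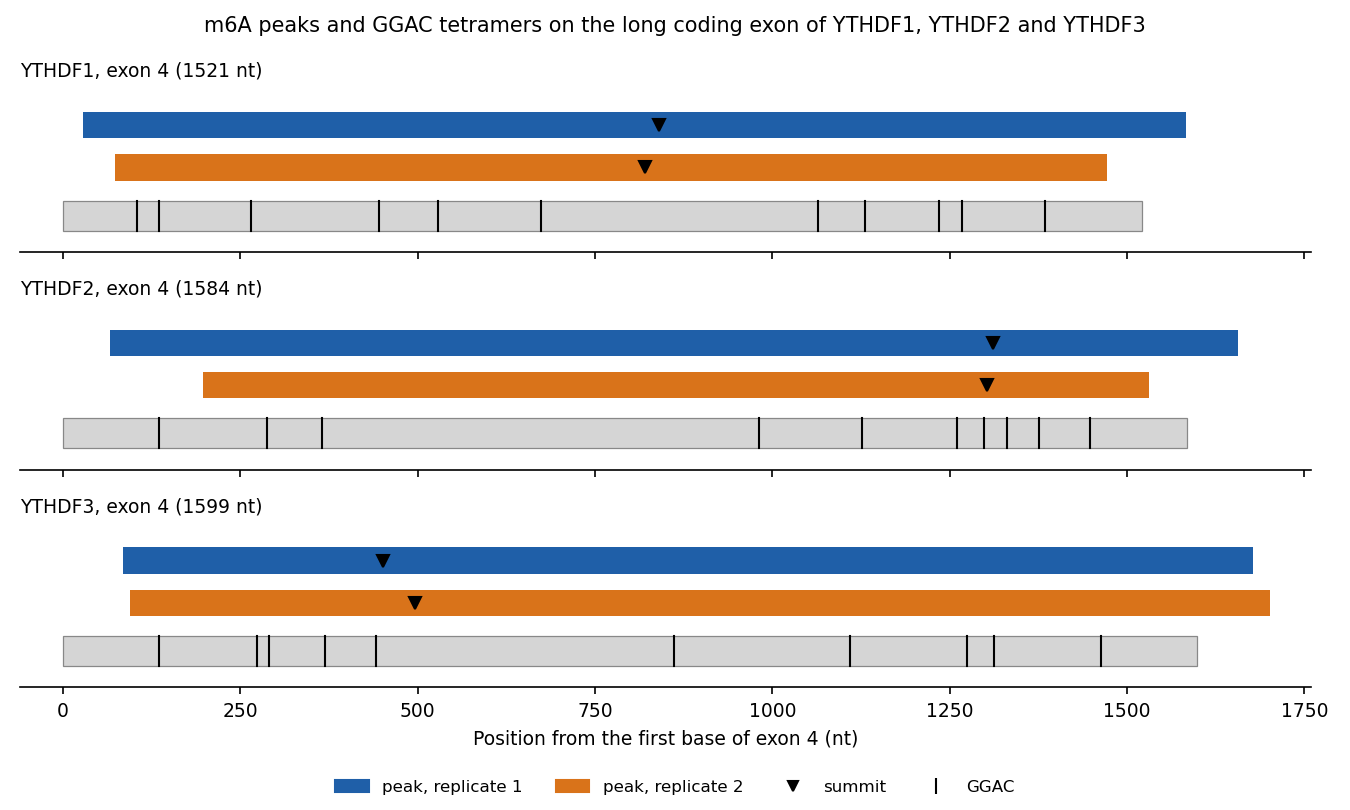
Exon 4 of YTHDF1, YTHDF2 and YTHDF3 with the position in nt from its first base on the x axis; blue and orange bars are the peaks of replicates 1 and 2, triangles their summits and vertical ticks GGAC tetramers. All 6 bars span most of the exon, the YTHDF2 summits sit among the cluster of GGAC near the end of the exon, and the YTHDF1 summits sit in a stretch without GGAC.

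YTHDF2 carried the strongest peak of all reader genes in replicate 1 and by the geometric mean, while IGF2BP2 and IGF2BP3 exceeded it in replicate 2. On exon 4 (chr1:28742470-28744058 in replicate 1 and chr1:28742600-28743933 in replicate 2) the fold enrichment was 14.3 and 8.87, with a −log10 q of 92.4 and 76.4, a q-value being the p-value adjusted for all candidate peaks. These values stood at percentiles 96.3 and 89.6 of all exonic peaks of their lists. The window around either summit held 3 GGAC, the A of the nearest 10 and 2 nt upstream of the summit, as printed above. The pseudogene YTHDF2P1 matched 1257 bp of the replicate 1 peak at 97.6% identity, and neither list had a peak there. The other peak of YTHDF2 lay in exon 5, 138 and 129 nt past the start of the stop codon, with a fold enrichment of 2.43 and 5.02. Counting exonic bases only, it began in replicate 1 where the exon 4 peak ended, with 0 nt between them. In replicate 2, 98 nt lay between them. In the genome the replicate 1 peaks reached 72 nt (exon 4 peak) and 3 nt (exon 5 peak) into the intron. The log2 ratio of replicate 1 to replicate 2 of the exon 5 peak was −1.04, at percentile 0.703 of all exonic pairs. A difference in this direction was rare, whereas 13.0% of all exonic pairs differed by more in either direction. This exon 5 peak also has a near copy in the genome. The replicate 1 peak matched YTHDF2P1 at 98.9% identity over 178 of its 179 bp. The replicate 2 peak had a match at 97.7% identity, and the lists had no peak at these matches.

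YTHDF1 had weaker peaks that were close to equal in the replicates. On exon 4 (chr20:63202225-63203779 and chr20:63202336-63203733) the fold enrichment was 4.30 and 3.52, below the exonic medians of 5.30 and 4.82. There was no GGAC within 50 nt of either summit, and the nearest lay 164 and 144 nt upstream, although the whole peak held 11 in each replicate. The other peak lay in the distal 3′ UTR, 1081 and 1055 nt after the start of the stop codon, with 3.29 and 3.23. Unlike YTHDF2 and YTHDF3, YTHDF1 had no summit within 200 nt of its stop codon in either replicate.

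In YTHDF3, on chromosome 8, the order of the 2 peaks was the reverse of that in YTHDF2. The exon 4 peak (chr8:63186232-63187824 and chr8:63186242-63187848) had a fold enrichment of 7.20 and 4.44 in replicates 1 and 2, and the peak at 162 and 151 nt after the start of the stop codon had 10.8 and 5.81. The replicate 1 value was the higher at both peaks, with log2 ratios of 0.70 and 0.90, both inside the central 95% of all exonic pairs (−0.71 to 1.54). Counting exonic bases only, 0 nt lay between the peaks in both replicates. In the genome the intron between exons 4 and 5 separated them, and each peak reached into it. In replicates 1 and 2, the exon 4 peak ran 79 and 103 nt past its exon. The exon 5 peak began 81 and 69 nt before its exon. The stop codon peak contained no GGAC, while the exon 4 peak contained 10 in each replicate. A GGAC lay 7 nt upstream of the replicate 1 summit and 53 nt upstream of the replicate 2 summit.

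YTHDC1 had the most peaks of any reader gene, 5 in replicate 1 and 4 in replicate 2, spread over its UTR, exons and introns. Its highest exonic value in replicate 1 was on exon 4 (chr4:68337117-68337413), where the fold enrichments of replicates 1 and 2 were 7.22 and 4.11. The summits fell in codons 231 and 245. The interval common to both replicates (267 bp) was 80.9% A and G and held no GGAC, and the printed window shows part of it. The replicate 1 peak aligned to 350 other places of the primary chromosomes, the best with 83.2% identity over 184 bp, and none of them was at least 90% identical over at least 80% of the peak. The part of such low-complexity sequence in this peak was not tested.

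Both remaining shared peaks of YTHDC1 lay at or in intron 11, which is 2543 nt long. The first (chr4:68322509-68322784 and chr4:68322585-68322800) straddled the end of exon 11. In replicate 1 its summit was in codon 522, at the outermost base of a peak of which 240 of 276 bp lay outside the exon, with a fold enrichment of 2.0. In replicate 2 the summit was 24 nt into the intron with 4.15, a base that is exonic only in the retained-intron transcript ENST00000506175.1. The log2 ratio of replicate 1 to replicate 2 was −1.05, at percentile 0.669 of all exonic pairs, and 12.7% of the pairs differed by more in either direction. The second peak (chr4:68321390-68321686 and chr4:68321405-68321613), in mid-intron, was closely matched instead. Its summits were 1251 and 1247 nt after the 5′ splice site with fold enrichments of 7.51 and 7.26 (log2 ratio 0.05), and the common 209 bp held 2 GGAC, both as GGACT. Of all intronic peaks, 39.6% in replicate 1 and 36% in replicate 2 overlapped a peak of the other replicate.

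The remaining peaks of YTHDC1 were each found in 1 replicate. Replicate 1 alone had a peak in the 5′ UTR, 131 nt from the 5′ end, with a fold enrichment of 6.53, and another in exon 17, 113 nt before the stop codon, with 3.80. Replicate 2 alone had a peak in intron 9 with 4.86. No exonic summit of YTHDC1 fell in its 3712 nt long 3′ UTR.

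YTHDC2 had a 30-exon mRNA of 6305 nt with 15 GGAC and no exonic peak in either replicate. Its only peak, in intron 17 in replicate 1, had a fold enrichment of 4.23 and a −log10 q of 2.44. It aligned to 86 other places in the genome, the best with 87.6% identity over 194 of its 196 bp, and it contained no GGAC.

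IGF2BP3, the reader that the series is about, carried its strongest peak outside the mature mRNA. In intron 3, which is 57034 nt long, a peak of 860 bp in replicate 1 (chr7:23414559-23415418) and 783 bp in replicate 2 (chr7:23414630-23415412) had a fold enrichment of 6.41 and 10.2. The summits lay 3913 and 3566 nt after the 5′ splice site. They count as exonic only through the last exon (2322 nt) of the retained-intron transcript ENST00000468005.1. The log2 ratio of replicate 1 to replicate 2 was −0.67 at percentile 2.90 of all exonic pairs, and the summits were 347 nt apart, at percentile 96.4.

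This interval was a tandem repeat dense in GGAC. The peak held 25 GGAC in replicate 1 and 24 in replicate 2. Of the 20134 exonic peaks of replicate 1 only 18 had more GGAC per kb than its 29.1, against a median of 5.28, and in replicate 2 only 11 of 13113 had more than its 30.7, against a median of 5.55. Of the 24 distances between the starts of neighbouring GGAC, 8 were 35 or 36 nt, 9 were 27 to 32 nt and 7 were 5 or 6 nt. When the common interval was shifted against itself, the best match came at 35 nt, where 43.4% of bases were identical, against a median of 26.7% over the shifts tried. The common unit can be read in the printed windows. The GGAC run began before the peaks, with 5 more in the 500 nt upstream. No other place on the primary chromosomes aligned to either peak. Whether the antibody signal came from a pre-mRNA, from the retained-intron transcript or from another RNA cannot be told apart, because the lists carry no strand and no read positions.

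**Figure D3:**
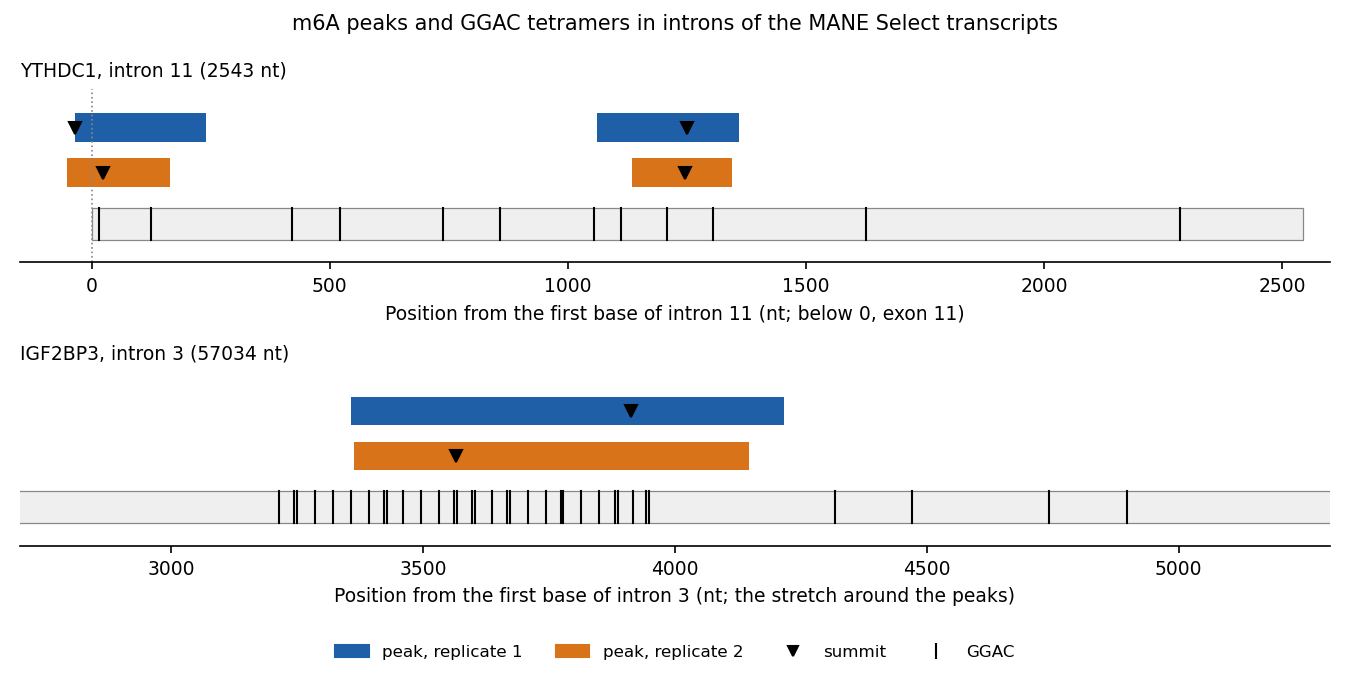
Peaks in intron 11 of YTHDC1 (top) and around the peaks of intron 3 of IGF2BP3 (bottom), with the position in nt from the first base of the intron on the x axes; blue and orange bars are peaks of replicates 1 and 2, triangles their summits and vertical ticks GGAC tetramers. In YTHDC1 a peak straddles the 5′ splice site (dotted line) and another lies in mid-intron, and in IGF2BP3 both bars lie over a dense, regularly spaced run of GGAC.

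On the spliced IGF2BP3 mRNA the peaks were weaker. Exon 1 carried a CDS peak (chr7:23469946-23470138 and chr7:23469955-23470095) with fold enrichments of 3.33 and 2.86 and summits in codons 19 and 28. This short peak held 5 GGAC in each replicate, and only 38 exonic peaks of replicate 1 and 2 of replicate 2 had more GGAC per kb. Another locus (ENSG00000213067) matched the replicate 1 peak at 93.6% identity over 187 of 193 bp, and neither list had a peak there. A peak 36 nt after the start of the stop codon was found in replicate 1 only, with 4.35, and 2 other places in the genome were at least 90% identical over at least 80% of it. The 2153 nt long 3′ UTR had no other summit.

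IGF2BP2 showed the closest match between replicates in position. Its distal 3′ UTR peak in exon 16 (chr3:185643813-185644061 and chr3:185643803-185644014) had a fold enrichment of 9.28 and 10.6 in replicates 1 and 2, with summits 1591 and 1590 nt after the start of the stop codon. The log2 ratio was −0.19, and the values stood at percentiles 84.4 and 94.8 of all exonic peaks. The window of 50 nt around the summits held no GGAC, and the nearest lay 67 and 66 nt upstream. In the genome 4 other places were at least 90% identical over at least 80% of this peak, the best at 95.6% over all 249 bp of the replicate 1 peak, and the lists had no peak at that best match. A second peak, 158 nt after the start of the stop codon with a GGAC 15 nt upstream of its summit, was found in replicate 1 only, with a fold enrichment of 4.97 and 3 such copies.

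IGF2BP1 had no peak in its gene body in either replicate. Its mRNA was the longest of the 8, with 8796 nt, and held the most GGAC, with 40. GGAC on the mRNA and peaks were therefore not in the same order across the genes. In YTHDF1, 12 of 16 GGAC lay under a peak in both replicates, in YTHDF2 11 of 13 and in YTHDF3 10 of 13. In YTHDC1 it was 3 and 1 of 15, in IGF2BP2 3 and 2 of 15, in IGF2BP3 6 and 5 of 13, and in YTHDC2 0 of 15. A peak needs RNA, and the mRNA level in these samples was not measured by the lists, so the absence of a peak says nothing of whether IGF2BP1 and YTHDC2 were expressed or methylated.

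**Figure D4:**
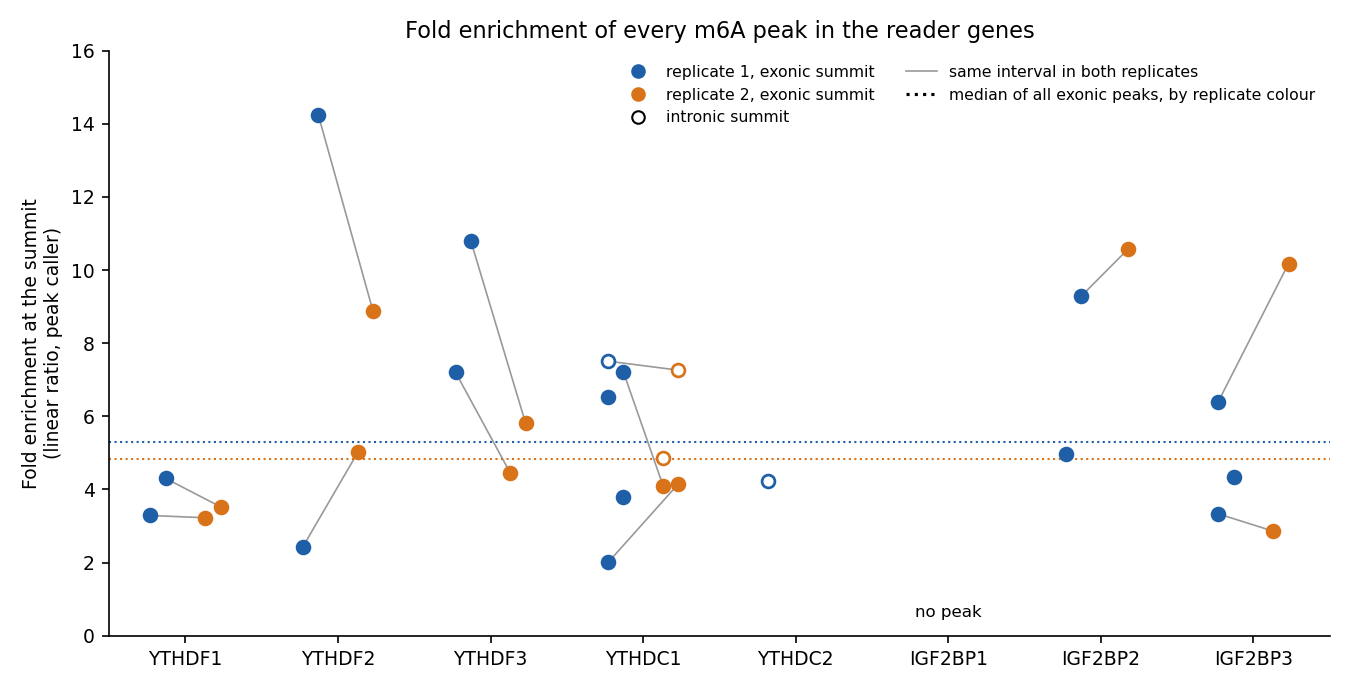
Fold enrichment at the summit (linear ratio) of every peak in the 8 reader genes, in blue for replicate 1 and orange for replicate 2; filled points are exonic summits, open points intronic ones, lines join peaks of the same interval, and dotted lines mark the median of all exonic peaks of each replicate. YTHDF2 has the highest point (14.3), IGF2BP2 and the IGF2BP3 intron peak rise towards replicate 2, and IGF2BP1 has none. The intron 3 peaks of IGF2BP3 and the replicate 2 peak at the exon 11 boundary of YTHDC1 are filled because retained-intron transcripts make their summits exonic.

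To compare the replicates, peaks were paired when each was the largest overlap of the other. All 11 exonic peaks of replicate 2 overlapped a peak of replicate 1 by at least 1 bp, as did 95% of all exonic peaks of that list. Of the 15 exonic peaks of replicate 1, 11 overlapped a peak of replicate 2, or 73.3% (95% Wilson interval, 48.0% to 89.1%, counting error only), beside 60.2% of all. The fold enrichment was higher in replicate 1 in 7 of the 11 pairs, beside 80% of all exonic pairs. The 4 pairs higher in replicate 2 were the stop codon peak of YTHDF2, the exon 11 boundary of YTHDC1, the intron peak of IGF2BP3 and the 3′ UTR peak of IGF2BP2. The median log2 ratio of the pairs was 0.22, against 0.43 over all exonic pairs with an SD of 0.55. This SD is the spread, over all exonic pairs, of the ratio between the replicate 1 and replicate 2 values of a peak. Ordered by the mean log2 fold enrichment of their strongest shared exonic peak (± SD, n = 2), the genes ran from YTHDF2 (3.49 ± 0.48) through IGF2BP2 (3.31 ± 0.13), IGF2BP3 (3.01 ± 0.47, the intron 3 peak), YTHDF3 (2.99 ± 0.63) and YTHDC1 (2.44 ± 0.58) to YTHDF1 (1.96 ± 0.20). The SD of 0.55 belongs to a ratio of single values and not to a difference between such means, so it does not judge this order. The place of IGF2BP3 rests on the retained-intron transcript. Its only shared peak on MANE Select exons, in exon 1, had 1.63 ± 0.16, below YTHDF1. The shared mid-intron peak of YTHDC1 (2.88 ± 0.03) was left out, as its summits are intronic. Whether neighbours in the order differ was not tested.

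**Figure D5:**
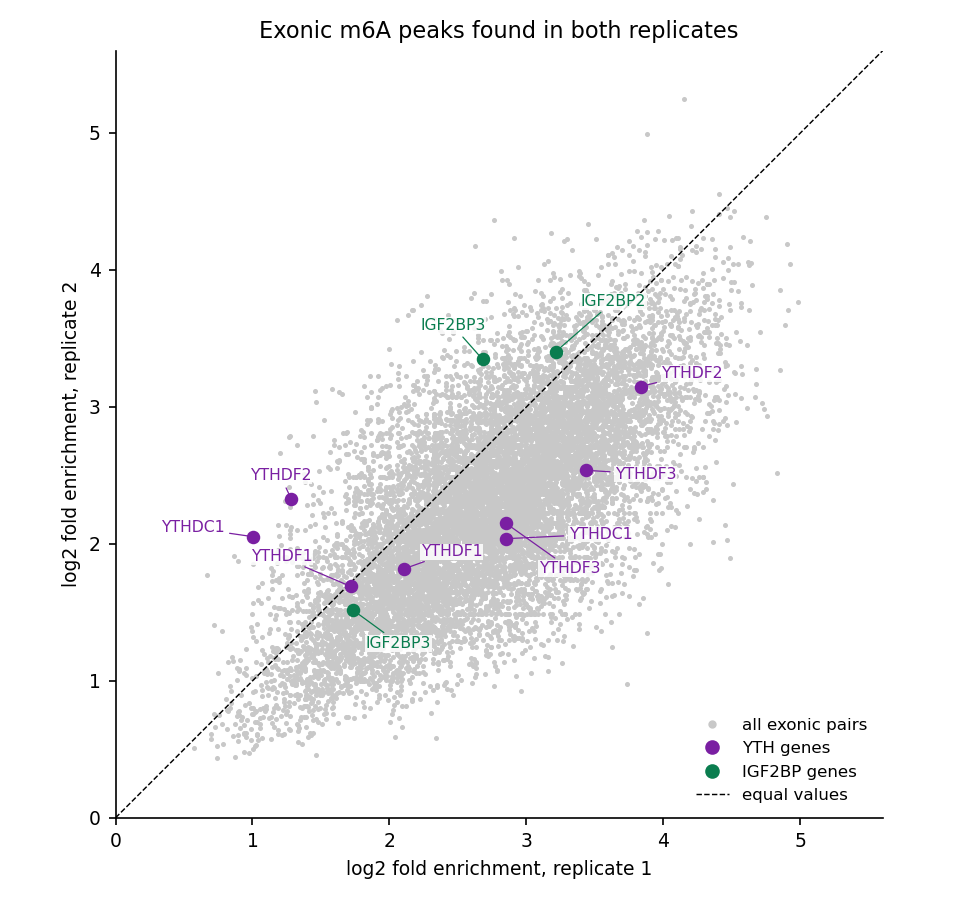
Log2 fold enrichment in replicate 1 (x axis) and replicate 2 (y axis) of the 11741 pairs of exonic peaks (grey), with the 11 pairs in YTH genes (purple) and IGF2BP genes (green) and a dashed line of equal values. Most grey points lie below the line, and the pairs of YTHDC1 and YTHDF2 at the left edge lie far above it, with log2 ratios of −1.05 and −1.04.

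Seen by region, summits were placed on the transcript with the longest CDS of each gene. Within 200 nt of its stop codon lay 5 of 12 exonic summits of replicate 1 and 2 of 8 of replicate 2. Of all exonic summits on such transcripts, it was 24.5% and 27.2%. Exonic summits off that transcript were left out, among them those of the IGF2BP2 distal 3′ UTR peak. On MANE Select transcripts the shares of the reader genes were 35.7% and 22.2%. The stop codon regions concerned were those of YTHDF2 and YTHDF3 in both replicates, and of YTHDC1, IGF2BP2 and IGF2BP3 in replicate 1. GGAC lay within 50 nt of the summit in 8 of 15 and 5 of 11 exonic peaks, beside 49.7% and 51.5% of all. As a control for base composition, its reverse complement GTCC lay there in 4 of 15 and 4 of 11, beside 31.5% and 29.6% of all. The summit was outside the exons of the MANE Select transcript in 1 of 15 and 2 of 11, beside 8.59% and 7.41% of all, and these were the intron peaks of IGF2BP3 and, in replicate 2, of YTHDC1. The 95% Wilson interval of each of these shares contained the share of all exonic peaks. These intervals hold counting error only and were wide, as with 7.15% to 59.1% for the stop codon share of replicate 2. Several peaks come from the same gene, so the intervals are no test of likeness to all exonic peaks.

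Between the families, YTH genes had 0.323 and 0.259 exonic peaks per kb of exon in replicates 1 and 2, and IGF2BP genes 0.213 and 0.128. The median width was 334 and 322 bp in YTH genes and 193 and 212 bp in IGF2BP genes. The order in fold enrichment was not stable. The geometric mean of the best exonic fold enrichment of each gene was 8.32 in YTH and 7.71 in IGF2BP genes in replicate 1, and 5.24 and 10.4 in replicate 2. Over both replicates it was 6.60 and 8.95, and the latter fell to 5.91 when only exons of the MANE Select transcript were used, which drops the IGF2BP3 intron peak.

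The other genes of the m6A pathway were examined as lists. Of 12 writers, which form or act beside the methyltransferase complex, 9 had an exonic peak in both replicates, 1 in a single replicate (METTL3, the catalytic subunit, 6.63 in replicate 1) and 2 in neither. The strongest was WTAP, the adaptor of the complex, with a best fold enrichment of 11.9 and 11.7 in replicates 1 and 2. METTL16, a separate methyltransferase, had 7.07 and 15.2, and ZC3H13, which anchors the complex in the nucleus, had 11.2 and 7.85. The best peaks of a gene in the replicates need not be the same peak. In WTAP they lay in the CDS and outside the MANE Select exons, and in ZC3H13 at the stop codon and in the CDS. METTL5 and ZCCHC4, which methylate ribosomal RNA, had no exonic peak. Both erasers had a peak in both replicates, FTO with 5.28 and 4.96 and ALKBH5 with 3.22 and 2.27.

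Of 12 other proposed readers, 4 had an exonic peak in both replicates, 2 in a single replicate and 6 in neither. The strongest were EIF3A, a subunit of an initiation factor, with 4.79 and 5.85, PRRC2A with 4.75 and 2.88, and the stress granule protein G3BP1 with 3.60 and 2.42. HNRNPC, FMR1, FXR1, ELAVL1, LRPPRC and SND1 had none. Of 9 partners of YTH proteins, 2 had an exonic peak in both replicates, POP1, a subunit of RNase P and RNase MRP, with 9.67 and 5.80, and the decay helicase UPF1 with 6.68 and 4.72. CNOT1, RIDA, SRSF3, SRSF10, XRN1 and MEIOC had none. Of 7 partners of IGF2BP proteins, 3 had an exonic peak in both replicates, SYNCRIP with 3.98 and 3.73, MATR3 with 3.48 and 2.83 and HNRNPU with 2.84 and 1.90, and PABPC1, ELAVL1 and DHX9 had none. Exonic peaks in both lists were found in 75% of writers and 100% of the 2 erasers. The share was 33.3% in other proposed readers, 22.2% in YTH partners and 42.9% in IGF2BP partners, beside 31.9% of all protein-coding genes. That background counts genes whether or not these cells express them. Whether expression sets the lists apart from it was not tested.

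The identity of the cells could not be checked from these lists, since a list of peaks is no measure of expression. Of 7 epithelial markers, 2 had an exonic peak in either replicate, CDH1 with 4 and 1 peaks and VIL1 with 2 and 0, while EPCAM, KRT8, KRT18, KRT19 and ERBB2 had none. Of 4 markers of other cell types, COL1A1 had 1 peak in replicate 1, and PTPRC, PECAM1 and VIM had none. In both replicates, 1 of 7 epithelial markers and 0 of 4 others had an exonic peak, beside 31.9% of all protein-coding genes.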

How the data were processed

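The authors deposited 1 list of m6A peaks for each IP sample, in hg38 coordinates. Per the labels, reads were handled with fastp, HISAT2 and MACS2, whereas the methods of the study name TopHat2 and MACS2 with default settings, and neither gives versions. The labels describe UV-fixed lysate and a directional library kit, whereas the methods of the study describe m6A IP from purified total RNA that was DNase-treated and fragmented. Which of these made the RNA of these samples was not settled. Whether the input samples served as control was not given in the sources used here. The deposited lists hold the fold enrichment at the summit (a linear ratio to local background), −log10 p, −log10 q and an integer score, of which the ratio and −log10 q were used. They hold no read counts, so the depth is unknown. They hold no strand, so reads of overlapping antisense transcripts cannot be separated.

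Summits were assigned to genes with GENCODE 44, exonic before intronic. All 44 and 53 sequence names of the lists matched hg38, and 0 peaks ran past a chromosome end. The stop codon window was 200 nt, the motif window 50 nt in the genome (also across exon ends), and shared peaks overlapped by at least 1 bp. Copies were searched with blastn 2.17.0. Python 3.11.15 with pysam 0.24.0 and Biopython 1.88 was used, and the functions were tested on simulated data. How reads that match several places were treated was not given in the sources used here.

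No test was run, as 1 group of 2 samples has values. Counts are set beside the share over all features, and intervals are 95% Wilson intervals. All 8 reader genes are named, with the 3 strongest genes of each pathway list that had a peak in both replicates and all those without a peak; METTL3, VIL1, CDH1 and COL1A1 were named as the genes behind small counts. The members, lists and rules were chosen with earlier results of these data known.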

Additional observations from a re-analysis of the deposited data

How the results depend on the processing

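Of 113 alternative values of 16 results, 103 stayed close to the reported value, 10 moved and 0 reversed. Counts, shares and geometric means have no sign that could reverse, and each was compared only with its own reported value. The order of the families was not among the 16 results, and it did reverse. The geometric means, reported as 6.60 in YTH and 8.95 in IGF2BP genes, were 8.32 and 7.71 without replicate 2. On MANE Select exons they were 6.59 and 5.91. With a fold enrichment of 5 or more, 7 exonic peaks remained in replicate 1 and 5 in replicate 2, YTH genes with a peak in both replicates fell to 2, peaks per kb fell to 0.129 in YTH and 0.0851 in IGF2BP genes, and 25% of the replicate 1 summits (1 of 4) and 66.7% of the replicate 2 summits (2 of 3) lay in the stop codon window, the former lower and the latter higher than reported. With 100 nt in place of 200 nt around the stop codon, 8.33% and 0% of summits lay in the window in replicates 1 and 2. With 100 nt around the summit, 72.7% of replicate 2 summits had a GGAC. The shares of all exonic summits were not taken at these other settings. The shares given here therefore cannot be set beside the background reported above. The IGF2BP geometric mean of 5.91 on MANE Select exons was an alternative chosen after seeing the data. A minimum fold enrichment can only lower the counts of peaks and genes. A narrower window can only lower a share and a wider one can only raise it. The stop codon shares at a fold enrichment of 5 or more could move either way and rest on 4 and 3 summits. Without replicate 1 or without replicate 2, the counts of genes with a peak stayed at 6, 4 and 2, and the geometric means ranged from 5.24 to 8.32 in YTH and from 7.71 to 10.4 in IGF2BP genes. No paired analysis was possible because the input samples have no list analysed here and no result comes from a test. Depth is unknown, so a missing peak cannot be told from too few reads, and each value of a single list has no error of its own.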
